A study of Mus musculus with 14 samples.

Results

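The receptors for serotonin, dopamine, noradrenaline, adrenaline and acetylcholine were examined for promoter H3K27me3 in the postnatal mouse cerebellum. The group was defined by gene symbol alone and holds 49 of the 21938 protein-coding genes of the annotation. It comprises 14 serotonin receptor genes (Htr), 5 dopamine receptor genes (Drd), 9 adrenergic receptor genes (Adra and Adrb), 5 muscarinic acetylcholine receptor genes (Chrm) and 16 nicotinic acetylcholine receptor subunit genes (Chrn). The mark was profiled by ChIP-seq, in which fragments bound by an antibody are sequenced, in cerebellum of the first postnatal week (P7), the second week (P14) and adulthood (P60), with 3 libraries for each stage. The number in each name is the age in days. The mice were wild-type C57BL/6NCrl animals of both sexes, per the study's methods, and the P60 replicates came from single mice while the younger ones were pools, larger at P7 than at P14, so pool size changed with stage. A further 5 libraries from a Kdm6b knockout experiment were not analysed here.

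H3K27me3 is written by Polycomb repressive complex PRC2 and marks the promoters of genes that are held silent, most often promoters rich in CpG dinucleotides. Monoamine and muscarinic receptors are G protein-coupled receptors, whereas the nicotinic receptors and the type 3 serotonin receptors are cation channels built from 5 subunits. In the cerebellum, serotonin, noradrenaline and acetylcholine arrive in fibres from the brainstem, and the cell bodies that make monoamines lie outside it. Most cerebellar cells are granule neurons, whose progenitors still divide at P7. Each value below is promoter coverage, the percent of bases under peaks in a window reaching 3 kb to each side of a transcription start site (TSS), taken at the best covered TSS of the gene in each library. Peaks are the regions that the authors' software called enriched in that library. A promoter was called marked when any base of that window was covered.

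The lists differed in ways that bear on every comparison with P60. Over all genes the mean promoter coverage was 3.13% to 5.70% in the P7 libraries, 1.26% to 3.31% in the P14 libraries and 0.345% to 1.34% in the P60 libraries. The median peak was 485 to 751 bp wide at P7, 269 to 580 bp at P14, and 134, 149 and 410 bp in P60 replicates 1, 2 and 3, so P60 replicate 3 stood apart from the other P60 lists. P14 replicate 1 had the narrowest peaks and the lowest coverage of its stage. The number of reads per library is unknown. The tissue holds many cell types, and a smaller number of cells carrying the mark cannot be told apart from less of the mark in each cell. Of 8 granule neuron markers, Zic1, Zic2, Gabra6 and Cbln3 had no peak in any library, and the list averaged 3.98% at P7 and 0% at P14 and P60. All 9 marker lists averaged less coverage at P60 than at P7, for example 2.53% at P60 against 21.6% at P7 for the oligodendrocyte lineage and 1.18% against 18.5% for interneurons. The part of cell composition in the differences below was not tested.

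The receptor genes were marked more often than protein-coding genes at large. Of the 49 genes, 33 were marked in 2 or more of the 9 libraries, which is 67.3% against 23.3% of all protein-coding genes. The share was 69.2% of 26 glutamate receptor genes and 38.1% of 21 GABA receptor genes, and these differences in share were not tested. Marked in 2 or more libraries were 8 of 9 adrenergic, 12 of 14 serotonin, 4 of 5 dopamine and 3 of 5 muscarinic receptor genes, against 6 of 16 nicotinic subunit genes. The mean over the 49 genes was 16.8% ± 5.05 at P7, 11.6% ± 4.60 at P14 and 2.94% ± 3.38 at P60 (SD, n = 3 libraries each). Relative to the mean over all genes, the 49 genes stood 3.98 to 4.27 times higher in the P7 libraries, 4.54 to 5.10 times higher in the P14 libraries, and 2.39, 2.82 and 5.11 times higher in P60 replicates 1, 2 and 3. By family, coverage at P7 averaged 33.5% ± 5.06 over the adrenergic, 24.2% ± 4.76 over the dopamine, 16.9% ± 8.19 over the serotonin, 8.47% ± 5.66 over the muscarinic and 7.71% ± 2.65 over the nicotinic genes. The heatmap of coverage by library shows this order of families and the change with stage.

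**Figure D1:**
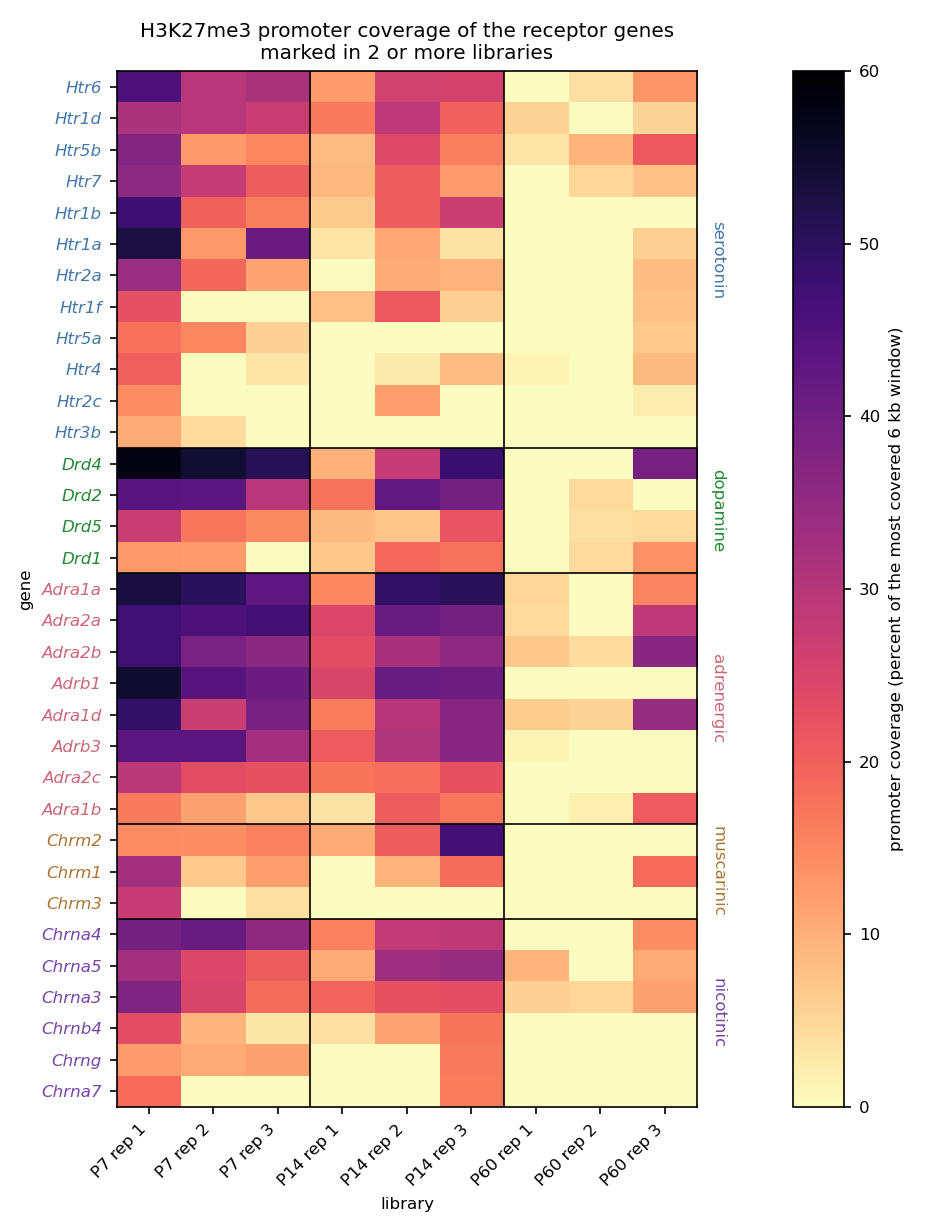
Promoter coverage in percent (colour) of the 33 receptor genes marked in 2 or more libraries (rows, grouped by family and ordered by mean coverage) in the 9 libraries (columns, P7 to P60). Most adrenergic genes are dark at P7 and in P14 replicates 2 and 3, and Drd4 is dark at P7 and in P14 replicate 3. P60 replicates 1 and 2 are pale throughout, and P60 replicate 3 retains colour at Drd4, Adra2a, Adra2b and Adra1d.

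The genes without the mark were mostly nicotinic. In no library was any base covered at Chrna2, Chrna6, Chrna9, Chrna10, Chrnb1, Chrnb3 and Chrne, at the dopamine receptor gene Drd3, at the muscarinic receptor genes Chrm4 and Chrm5, or at Htr2b and Htr3a. These 12 include the hair cell subunits Chrna9 and Chrna10 and, of the muscle receptor, the subunits Chrnb1 and Chrne. Another 4 genes were marked in a single library. Of these, Chrna1 reached 3.13% and Chrnb2 3.07% in P7 replicate 1, and Chrnd reached 1.65% in P14 replicate 1. Chrna1 and Chrnd encode muscle subunits, and Chrnb2 encodes a major neuronal subunit that partners with Chrna4.

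The marked and unmarked genes differed in the CpG content of the reference sequence. The median window held 23.5 CpG per kb at the 33 genes marked in 2 or more libraries, 13.7 at the 4 genes marked in 1 library and 9.75 at the 12 genes marked in none, against 18 for all protein-coding genes and 22.8 for all 5120 genes marked in 2 or more libraries. The adrenergic genes Adra2c, Adrb1 and Adra2a had the densest windows, with 55.5, 54.3 and 51.3 CpG per kb, each above 99% of all genes. Among the 12 unmarked genes, Chrnb1 and Chrm4 had 21.8 and 21.3 CpG per kb, above the median of all genes. However, TSS windows of Chrnb1 overlap those of Fgf11, and that of Chrm4 overlaps those of Mdk. The CpG there cannot be assigned to the receptor gene alone. Chrnb4 was marked in 6 libraries with only 12 per kb. The points of all 49 genes are plotted as coverage against CpG density, which is a description over genes that share the same 9 libraries.

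**Figure D2:**
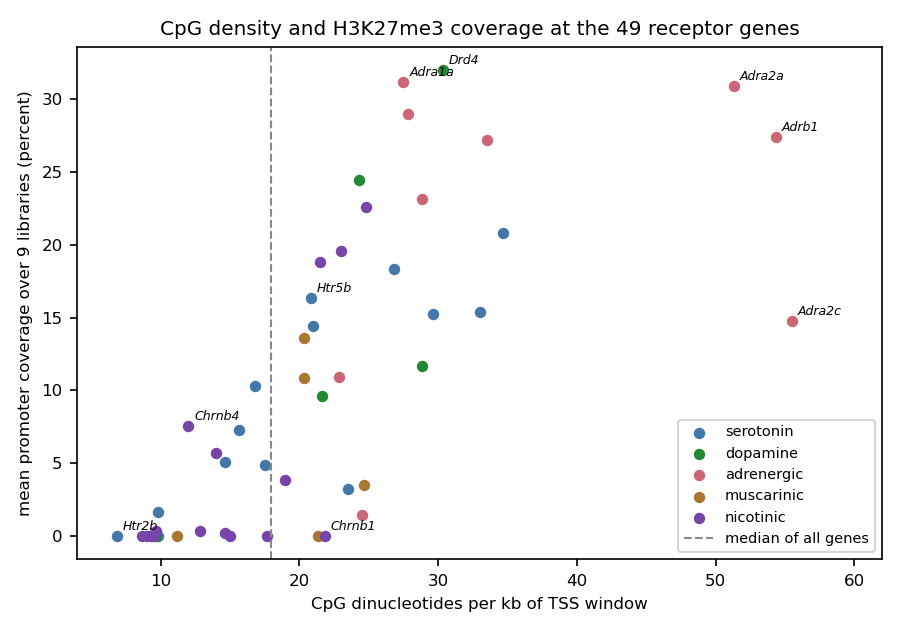
Mean promoter coverage over the 9 libraries in percent (y axis) against CpG dinucleotides per kb of the TSS window (x axis) for each of the 49 receptor genes, coloured by family. The dashed line is the median of all protein-coding genes (18 per kb). Of the 9 genes left of 10 per kb the highest is Htr3b at 1.66%, and every gene above 20% lies right of the line.

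Sequences show this contrast, with every CpG in capitals. They are the 250 bases before the RefSeq transcription start, 5′ to 3′ on the gene's strand (build GRCm38.p6, 37 of the 49 genes matched by symbol). The first set is from 4 genes with both high coverage and many CpG. Drd4, the best covered gene, had 12 CpG in its stretch and Drd2 had 15, and these sequences are not shown. Adrb1, the main cardiac and cortical beta receptor, had 24 CpG (chr19:56721867-56722116, plus strand). Adra2a, the inhibitory autoreceptor of noradrenergic neurons, had 22 (chr19:54045009-54045258, plus strand). The Gs-coupled serotonin receptor gene Htr6 had 23 (chr4:139075571-139075820, minus strand), and Chrna4, the alpha subunit of the main high-affinity nicotinic receptor of the brain, had 24 (chr2:181039178-181039427, minus strand).
Adrb1: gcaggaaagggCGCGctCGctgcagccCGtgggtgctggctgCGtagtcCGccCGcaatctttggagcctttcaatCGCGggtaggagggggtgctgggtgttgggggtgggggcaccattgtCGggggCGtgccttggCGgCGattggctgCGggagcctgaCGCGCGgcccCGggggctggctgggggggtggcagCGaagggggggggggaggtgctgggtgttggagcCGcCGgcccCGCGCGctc
Adra2a: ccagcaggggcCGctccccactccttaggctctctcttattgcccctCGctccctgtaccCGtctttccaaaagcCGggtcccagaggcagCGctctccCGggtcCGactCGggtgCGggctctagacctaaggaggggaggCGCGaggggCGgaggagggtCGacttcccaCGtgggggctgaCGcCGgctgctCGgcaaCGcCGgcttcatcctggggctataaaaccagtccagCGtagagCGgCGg
Htr6: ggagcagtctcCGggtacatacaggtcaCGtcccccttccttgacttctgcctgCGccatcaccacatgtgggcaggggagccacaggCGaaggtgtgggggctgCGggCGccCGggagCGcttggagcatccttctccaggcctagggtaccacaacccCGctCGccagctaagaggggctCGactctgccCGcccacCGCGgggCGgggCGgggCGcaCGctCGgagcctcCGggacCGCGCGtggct
Chrna4: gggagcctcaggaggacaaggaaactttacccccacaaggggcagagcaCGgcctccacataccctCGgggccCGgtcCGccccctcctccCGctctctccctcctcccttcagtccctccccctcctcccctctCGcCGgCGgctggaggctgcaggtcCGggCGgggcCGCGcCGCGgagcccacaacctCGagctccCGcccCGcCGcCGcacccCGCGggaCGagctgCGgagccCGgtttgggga

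The second set is from unmarked genes. Chrm5, a Gq-coupled muscarinic receptor gene, had 2 CpG (chr2:112480818-112481067, minus strand), and Chrna10 had 1 (chr7:102116714-102116963, minus strand).
Chrm5: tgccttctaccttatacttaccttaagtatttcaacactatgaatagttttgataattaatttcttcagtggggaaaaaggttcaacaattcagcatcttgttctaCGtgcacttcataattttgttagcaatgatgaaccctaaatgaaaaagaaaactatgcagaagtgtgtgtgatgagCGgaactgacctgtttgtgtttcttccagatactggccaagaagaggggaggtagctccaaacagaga
Chrna10: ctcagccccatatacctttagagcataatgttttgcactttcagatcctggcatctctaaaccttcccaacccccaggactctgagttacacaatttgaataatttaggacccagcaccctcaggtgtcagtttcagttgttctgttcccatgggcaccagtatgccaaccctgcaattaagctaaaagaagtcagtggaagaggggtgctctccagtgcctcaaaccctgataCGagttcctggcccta

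The median over the 32851 promoters of the table was 6 CpG, and 37.8% of them held 10 or more. The median was 12 over the matched genes marked in 2 or more libraries and 2.5 over those marked in none. Low counts also occurred at marked genes and high ones at unmarked genes. The unmarked Chrnb1 had 14 and Chrm4 had 26, whereas Htr1a, Htr1b, Htr1d and Adra2c each had 6, and Chrna5 had 3, in these 250 bases. The stretch of Chrm4 lies 5060 bp from its TSS in the annotation, outside the window in which coverage was measured. Those of Drd3 and Chrna9, which also enter the median of unmarked genes, lie 8195 and 32203 bp from the annotated TSS they were compared with.

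The comparison of P60 with P7 addressed the change over postnatal maturation. Coverage was lower at P60 at 19 of the 33 receptor genes tested and higher at 0, led by Adrb1, Adra1a, Drd4, Adrb3 and Drd2. The genes called lower were 7 of 12 serotonin, 3 of 4 dopamine, 6 of 8 adrenergic, 0 of 3 muscarinic and 3 of 6 nicotinic genes (limma, a linear model fitted to all genes together, Benjamini-Hochberg adjusted p under 0.05 over all 5120 genes tested). Over all genes tested, 45.8% were called lower and 0.605% higher, beside 57.6% lower among the receptor genes, and the difference between these shares was not tested. The median difference, P60 minus P7, was −19.3 points over the 33 receptor genes and −12 points over all genes tested. All 33 differences were negative, beside 4445 of the 5120 over all genes tested. At 20 of the 33 genes every P60 library was below every P7 library, as at 52.1% of all genes tested. The count at unadjusted p under 0.05 was 22 downward and 0 upward. The order of the shares called lower turned round when coverage was divided by the mean of its library. On that scale a change common to a whole list cancels. On it 4 of the 33 receptor genes (Adra2c, Adrb1, Adrb3 and Htr1b) were called lower and 0 higher, against 21.3% of all genes lower and 5.37% higher. Of the 33 differences 23 were negative, and 2 receptor genes passed unadjusted p under 0.05 upward. The order of the medians did not turn. The median difference was −1.49 times the library mean over the receptor genes and −1.05 over all genes tested.

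P60 replicates 1 and 2, the lists with narrow peaks, bore unequally on these differences. Without both, P60 held a single library, whose spread is taken from the other stages, and none of the 4875 genes then tested was called by limma, so the lost calls say little about single genes. With 9 receptor genes still at unadjusted p under 0.05, 28 of 33 differences were negative. They were as large as before at Adrb1 (−46.6 points), Adrb3 (−39.8), Drd2 (−38.8), Htr1b (−27.7) and Adra2c (−24.9), and smaller by more than 1.5 times at Drd4 (−15.1), Adra2a (−17.6), Htr5a (−6.45) and Adra2b (−4.08). Without P60 replicate 1 or without P60 replicate 2, 12 of the 33 were called in each case, beside 32.2% and 31.4% of all genes tested. In P60 replicate 3 alone, 20 of the 33 genes tested were below every P7 library, among them 17 of the 19 called. The 19 were called with this library in the fit, so that count is not separate support. Of the 19 genes, 14 were still marked in P60 replicate 3.

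**Figure D3:**
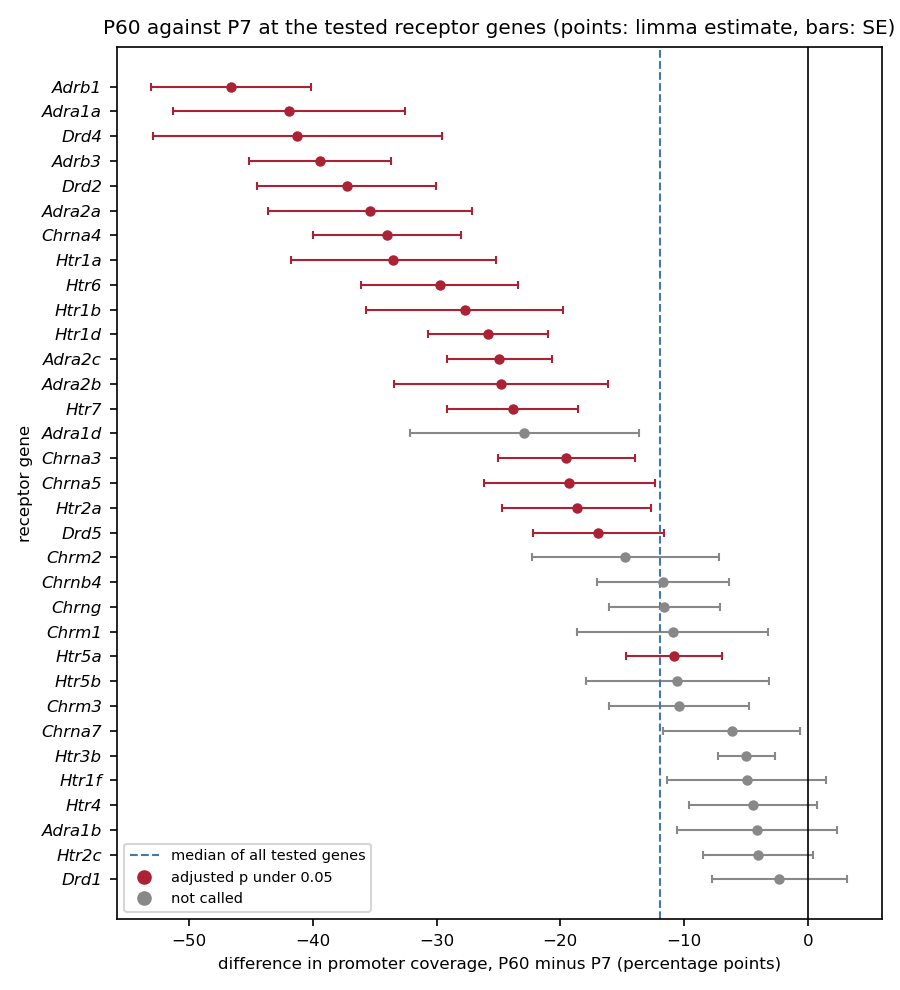
Difference in promoter coverage, P60 minus P7, in percentage points (x axis) for the 33 tested receptor genes, ordered by size. Points are limma estimates, bars are SE, red marks an adjusted p under 0.05 and the dashed line is the median of all genes tested (−12 points). On this scale all points lie left of 0, and Adrb1 is farthest from it at −46.6 points.

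Among the adrenergic genes, Adrb1 had no coverage at P60, whereas Adra2a and Adra2b were still marked in P60 replicate 3. Adrb1 (chr19:56722199-56733113, plus strand) had 54.8%, 44.1% and 40.9% in P7 replicates 1, 2 and 3, 25.0%, 41.2% and 40.6% at P14, and 0% in all P60 libraries. The P60 libraries did not overlap either earlier stage, and the difference from P7 was −46.6 points (SE 6.4, adjusted p = 0.00083). Adra1a, a Gq-coupled alpha receptor, had 53.0%, 50.2% and 42.7% at P7, 14.9%, 49.01% and 50.5% at P14, and 4.93%, 0% and 15.2% at P60. P14 replicate 1 fell just below P60 replicate 3, so those stages overlapped, whereas P60 lay wholly below P7 (−41.9 points, adjusted p = 0.0047).

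Both of the best covered alpha-2 genes, whose receptors are Gi-coupled, retained the mark in P60 replicate 3. Adra2a had 47.2%, 45.3% and 46.9% at P7, 24.6%, 41.2% and 39.4% at P14, and 4.62%, 0% and 28.9% at P60 (−35.3 points from P7, adjusted p = 0.0056). The call at Adra2a was lost with windows of 1 kb (−24.8 points, adjusted p = 0.14) and with the 5 prime end of the gene as the only TSS (−17.7 points, adjusted p = 0.062). Adra2b had 47.3%, 38.7% and 36.3% at P7, 23.0%, 32.0% and 35.6% at P14, and 6.82%, 4.45% and 36.7% at P60. P60 replicate 3 thus lay within the P7 range at Adra2b, where the difference of −24.8 points (adjusted p = 0.035) lost its call when any one of the P7 libraries, P14 replicate 2, P60 replicate 1 or P60 replicate 2 was left out, with adjusted p up to 0.14. Of the others, Adrb3 (−39.4 points, adjusted p = 0.00085), the beta receptor gene best known from fat, and Adra2c (−24.9 points, adjusted p = 0.0013) were called lower. Adrb3 shares its window with Got1l1, and the mark there cannot be assigned to either gene. The peaks of Adra2c at P7 were centred 2251 to 2443 bp downstream of its TSS. Adra1d was marked in all 9 libraries, with up to 49.1%, and Adra1b reached 20.8% in P60 replicate 3, its highest library. Neither was called.

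The dopamine receptor genes ranged from the best covered gene, Drd4, to the unmarked Drd3. Drd4 (chr7:141292006-141296464, plus strand), a Gi-coupled receptor of the D2-like class, had the highest mean coverage of the 49 genes, with 57.8%, 54.2% and 50.8% at P7, 9.78%, 27.9% and 48.3% at P14, and 0%, 0% and 39.2% at P60. All P7 libraries were above all others, and the later stages overlapped (P60 minus P7 −41.2 points, SE 11.7, adjusted p = 0.014). The call at Drd4 was lost without P7 replicate 1, P60 replicate 1 or P60 replicate 2, with adjusted p up to 0.062. Drd2, the Gi-coupled receptor of striatal output neurons and dopaminergic autoreceptors, had 43.6%, 43.2% and 29.5% at P7, 17.5%, 42.4% and 39.4% at P14, and 0%, 4.55% and 0% at P60, a difference of −37.3 points from P7 (adjusted p = 0.0024). P60 replicate 3, which was high at Drd4, thus had no peak at Drd2.

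The Gs-coupled pair was covered less. Drd5 had 27.4%, 17.0% and 14.7% at P7, 8.60%, 7.17% and 22.0% at P14, and 0%, 3.77% and 4.53% at P60 (−16.9 points, adjusted p = 0.022). Its call was lost without P7 replicate 1, P60 replicate 1 or P60 replicate 2, with adjusted p up to 0.084. Drd1 had 12.7%, 12.4% and 0% at P7, 6.93%, 19.0% and 17.4% at P14, and 0%, 4.47% and 13.8% at P60. All stages overlapped at Drd1, which was not called in any comparison.

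Of the 4 best covered serotonin receptor genes, Htr6, Htr1d and Htr7 were called lower at P60 than at P7 and Htr5b was not. Htr6 had 45.4%, 29.3% and 31.4% at P7, 12.5%, 25.9% and 25.6% at P14, and 0%, 3.82% and 13.1% at P60 (−29.7 points, adjusted p = 0.0036). Htr1d, a Gi-coupled autoreceptor gene, had 31.5%, 29.6% and 27.2% at P7, 16.9%, 28.8% and 20.1% at P14, and 5.58%, 0% and 5.25% at P60 (−25.8 points, adjusted p = 0.0019). At Htr1d, P60 replicate 3 did not stand apart from replicate 1. Htr7, a Gs-coupled receptor gene, had 36.0%, 27.7% and 20.5% at P7, 8.87%, 20.4% and 12.4% at P14, and 0%, 5.10% and 7.53% at P60 (−23.9 points, adjusted p = 0.0046). At Htr6, Htr1d and Htr7 every P60 library was below every P7 library.

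Htr5b, which encodes a functional receptor in rodents, was marked in all 9 libraries. It had 37.3%, 12.7% and 15.2% at P7, 8.23%, 24.0% and 16.2% at P14, and 3.10%, 9.27% and 21.1% at P60, and the stages overlapped. Also called lower at P60 than at P7 were Htr1b (−27.7 points, adjusted p = 0.015), a presynaptic Gi-coupled receptor gene that had no peak in any P60 library, Htr2a (−18.7 points, adjusted p = 0.025), a Gq-coupled receptor gene, and Htr5a (−10.8 points, adjusted p = 0.040). The call at Htr2a was lost without P7 replicate 1, P60 replicate 1 or P60 replicate 2 (adjusted p up to 0.085), and with all lists cut to equal numbers of peaks its difference was −0.99 points (adjusted p = 0.83). That at Htr5a was lost without P7 replicate 1 or 2, P14 replicate 2 or 3, or P60 replicate 1 or 2 (adjusted p up to 0.14). The rest reached 22.5% (Htr1f), 19.997% (Htr4), 14.4% (Htr2c, on the X chromosome) and 10.5% (Htr3b), each highest in P7 replicate 1, and were not called.

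The muscarinic receptor genes gave no call. Chrm2, a Gi-coupled receptor gene, had 14.3%, 14.2% and 15.7% at P7, 10.5%, 20.4% and 47.0% at P14, and 0% in all P60 libraries. P14 replicate 3 was far above all other libraries at Chrm2, and the P60 libraries lay below both earlier stages (P60 minus P7 −14.8 points, adjusted p = 0.13; P60 minus P14 −26.0 points, adjusted p = 0.074). Chrm1, a Gq-coupled receptor gene, had 32.7%, 6.77% and 12.1% at P7, 0%, 9.17% and 18.5% at P14, and 0%, 0% and 18.7% at P60. Chrm3 was marked only in P7 replicates 1 and 3, at 27.4% and 3.80%.

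Among the nicotinic subunit genes the neuronal alpha subunit genes Chrna4, Chrna5 and Chrna3 were the best covered. The neuronal alpha subunit genes Chrna2 and Chrna6 had no peak in any library. Chrna4 (chr2:181018380-181043546, minus strand) had 39.6%, 41.3% and 35.4% at P7, 15.8%, 28.3% and 28.7% at P14, and 0%, 0% and 14.2% at P60. The stages were fully separated from each other at Chrna4, and the difference, P60 minus P7, was −34.0 points (SE 6.0, adjusted p = 0.0016). Chrna7, which encodes the subunit of the homomeric neuronal receptor, reached 18.5% and was marked in P7 replicate 1 and P14 replicate 3 only. Chrng, the fetal muscle subunit gene, reached 16.5% and had no peak at P60, and neither was called.

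The chromosome 9 cluster of Chrna5, Chrna3 and Chrnb4 encodes the subunits of the ganglionic type of nicotinic receptor, and their best covered TSS windows do not overlap. Chrna5 (chr9:54980880-55007779, plus strand) had 33.0%, 24.5% and 20.4% at P7, 10.7%, 33.2% and 34.5% at P14, and 9.27%, 0% and 10.7% at P60 (P60 minus P7 −19.3 points, adjusted p = 0.039). Chrna3 (chr9:55010111-55026562, minus strand) had 37.9%, 25.0% and 18.4% at P7, 19.7%, 22.5% and 23.0% at P14, and 5.83%, 5.13% and 11.7% at P60 (−19.5 points, adjusted p = 0.014). Chrnb4 (chr9:55028154-55048779, minus strand) had 22.8%, 9.33% and 2.92% at P7, 3.92%, 11.4% and 17.2% at P14, and 0% in all P60 libraries, and was not called. All 3 genes of the cluster thus overlapped between P7 and P14 and lay wholly below P7 at P60. The call at Chrna3 was lost without P60 replicate 1 or 2 (adjusted p up to 0.058), and that at Chrna5 when P7 replicate 1 or 2 or any one of the P60 libraries was left out (adjusted p up to 0.14).

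The receptor genes differed in how much of the mark was found in P60 replicate 3. Of the 33 genes tested, 22 were marked in P60 replicate 3 and 10 each in P60 replicates 1 and 2. Coverage was 10% or more at 13 genes in replicate 3 and at 0 genes in replicates 1 and 2. In replicate 3, Adra2b and Adra1d had 90.0% and 90.1% of their P7 mean, and Drd4 had 72.1%, whereas Adrb1, Adra2c, Adrb3, Drd2 and Htr1b were at 0. Marked in every P7 library and in no P60 library were Adra2c, Adrb1, Chrm2, Chrnb4, Chrng and Htr1b. Only Adra1d, Adra2b, Chrna3 and Htr5b were marked in all 9 libraries. The plot of each P60 library against the P7 mean shows the difference between the P60 lists.

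**Figure D4:**
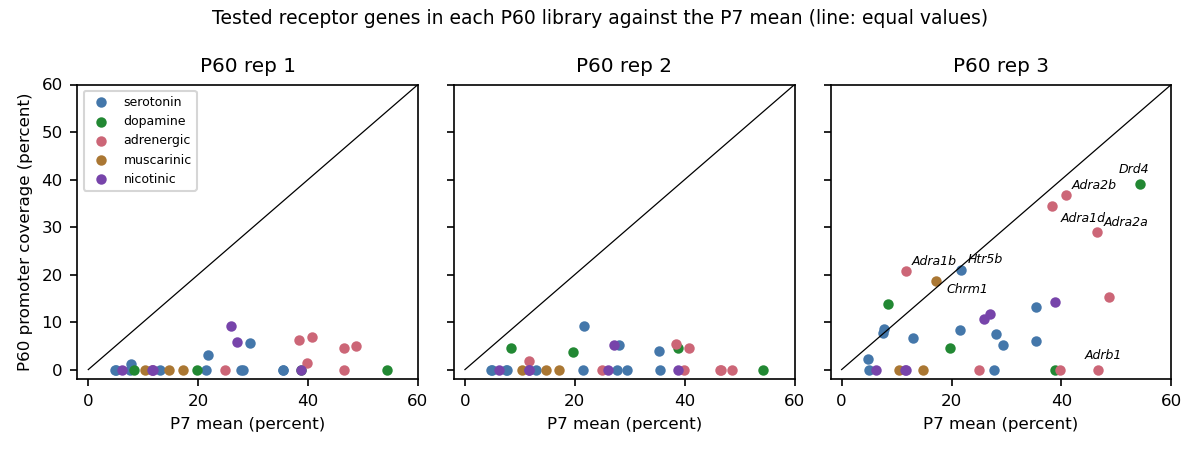
Promoter coverage in P60 replicates 1, 2 and 3 (y axes, percent) against the P7 mean (x axes, percent) of the 33 tested receptor genes, coloured by family, with a line of equal values. All points are below 10% in P60 replicates 1 and 2, while in replicate 3 several adrenergic genes lie near the line and Adrb1 lies at 0.

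The comparison of P14 with P7 spans the end of progenitor division. Only Htr1a (chr13:105443639-105448122, plus strand), the Gi-coupled somatodendritic autoreceptor gene, was called lower at P14, which is 1 of 33 receptor genes tested beside 11.7% of all genes tested. It had 52.6%, 12.8% and 41.0% at P7, 3.05%, 10.8% and 3.32% at P14, and 0%, 0% and 5.92% at P60. Every P14 library was below every P7 library, although P14 replicate 2 and P7 replicate 2 were close (P14 minus P7 −29.7 points, SE 8.3, adjusted p = 0.039). The widest peak of the window at P7 was 3189, 505 and 2458 bp wide in replicates 1, 2 and 3, and at P14 183, 651 and 199 bp. P7 replicate 2 was the library that departed from its stage at Htr1a, and the call was kept without it and lost without any other single library, with adjusted p up to 0.13. At P60, Htr1a was 33.5 points lower than at P7 (adjusted p = 0.0073). No receptor gene was called higher at P14, where 0.352% of all genes tested were, and 0 passed unadjusted p under 0.05 upward by limma. The mean at P14 was below that at P7 at 28 of the 33 genes, the exceptions being Adra1b, Chrm2, Chrna5, Drd1 and Htr1f. Over all genes tested it was below at 3916 of 5120. The median difference was −7.52 points against −5.73 points over all genes tested. This direction turned when coverage was divided by the library mean, where 10 of the 33 differences were negative and the median was 1.63 times the library mean, against 0 over all genes.

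The comparison of P60 with P14 covers maturation after division. The 3 receptor genes called lower at P60 were all adrenergic. They were Adrb1 (−35.6 points, adjusted p = 0.038), Adrb3 (−28.8 points, adjusted p = 0.038) and Adra2c (−19.3 points, adjusted p = 0.046), or 9.09% of the 33 genes tested, and 2.07% of all genes tested were called lower. None was called higher by limma, and 0 passed unadjusted p under 0.05 upward. Adrb3 had 0% to 1.28% at P60 against 20.7% to 36.7% at P14, and Adra2c had 0% at P60 against 17.3% to 22.4% at P14. The peaks of Adra2c at P14 were centred 2159 to 2375 bp downstream of its TSS. With 1 kb windows Adra2c was not marked in 2 or more libraries and was not tested. Drd2 fell just short (−31.6 points, adjusted p = 0.050), with P60 wholly below P14. The count depended on single libraries. It was 0 without P7 replicate 2 or 3, P14 replicate 2 or 3, or P60 replicate 1 or 2, 5 without P7 replicate 1 or P60 replicate 3, and 11 without P14 replicate 1. Over all genes tested, the share called lower was 0% in the fits with a count of 0. It was 7.58% without P7 replicate 1, 3.97% without P60 replicate 3 and 21.9% without P14 replicate 1.

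Within the windows the mark lay mostly downstream of the TSS. Averaged over the 33 genes tested, covered bases were most frequent 875 bp downstream at P7 (56.6% ± 7.0), 625 bp downstream at P14 (55.1% ± 15.4) and 625 bp downstream at P60 (20.3% ± 16.7, SD of 3 libraries each, bins of 250 bp). The span at or above 50% of that maximum reached from −375 to 1875 bp at P7, from −125 to 1375 bp at P14 and from 375 to 875 bp at P60. Over the 3 kb downstream the mean was 39.0% at P7, 28.8% at P14 and 6.90% at P60, against 10.7%, 5.78% and 1.82% over the 3 kb upstream. By library the maximum was 69.1%, 56.8% and 54.2% in P7 replicates 1, 2 and 3, 40.2%, 66.2% and 61.8% at P14, and 9.05%, 12.3% and 39.5% at P60. The height of the profile thus overlapped between P14 and P7, with P14 replicate 1 lowest, while all P60 libraries were lower.

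**Figure D5:**
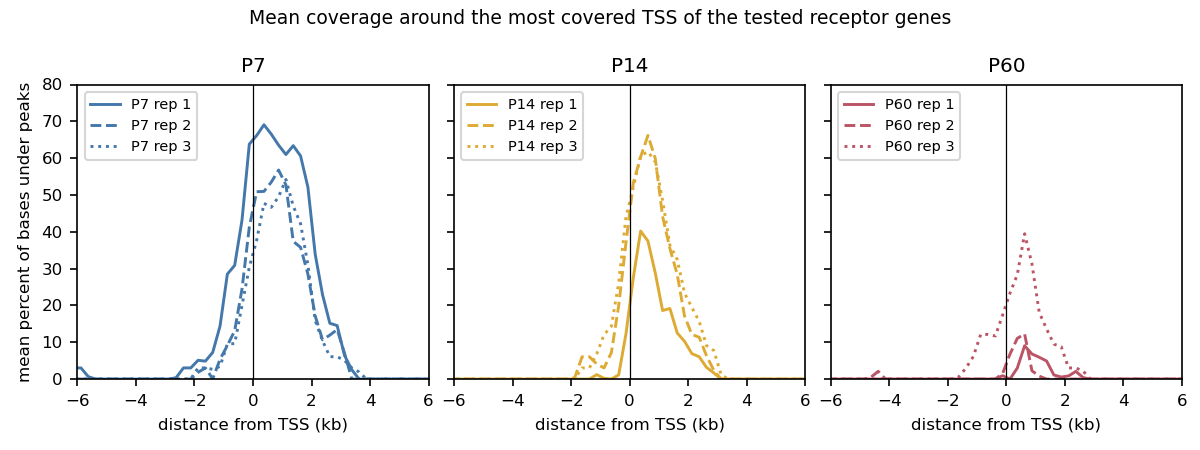
Mean percent of bases under peaks (y axes) against distance from the most covered TSS in kb (x axes, positive downstream) over the 33 tested receptor genes, with 1 line per library and 1 panel per stage. The maximum lies between 375 and 1125 bp downstream of the TSS in every library, and it is highest in P7 replicate 1 and lowest in P60 replicates 1 and 2.

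The widest peaks at these promoters were broad for their lists, and fold enrichment there was modest. The widest peak of a marked gene was wider than 76.7% to 89.0% of the peaks of its list in the median. The highest fold enrichment of any peak in the window was above only 27.2% to 54.0% of them. Taking the widest peak of each window favours wide peaks, and other marked promoters were not compared. The median widest peak measured 1228.5 to 1925.5 bp in the P7 libraries, 629 to 1378 bp in the P14 libraries, and 269.5, 270.5 and 747 bp in P60 replicates 1, 2 and 3. The q value is the peak caller's false discovery rate, and a higher −log10 q means a more certain peak. The highest −log10 q of any peak at these genes was 13.7 at P7, 9.05 at P14 and 3.43 at P60. In the median, the highest −log10 q of a window was above 55.9% to 76.2% of the peaks of its list at P7. That range was 40.3% to 73.9% at P14 and 35.1% to 39.1% at P60. Peaks of −log10 q of 2 or more were found in 19 to 30 of the 49 windows at P7, in 13 to 27 at P14 and in 3, 1 and 5 in P60 replicates 1, 2 and 3.

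The genes that make, move and break down the same transmitters were read from lists drawn up for this comparison. Of 9 synthesis genes, 5 were tested and 4 were called lower at P60 than at P7, and of 9 transporter genes 8 were tested and 6 were called lower, beside 45.8% of all genes tested. None of these was called higher, and the median differences were −22.9 and −23.5 points, against −12 points over all genes tested. Chat, which makes acetylcholine, and Slc18a3, which loads it into vesicles, share a locus with overlapping windows, with 4.97% ± 6.72 at P60 against 38.1% ± 10.1 at P7 for Chat (−33.1 points, adjusted p = 0.0036). The serotonin transporter gene Slc6a4 averaged 6.50% ± 8.99 at P60 against 43.8% ± 4.3 at P7 (−37.3 points, adjusted p = 0.0011). Slc6a3, the dopamine transporter gene, and Slc22a3, a low-affinity monoamine transporter gene, differed by −29.6 and −34.3 points (adjusted p = 0.0035 and 0.0023). Gch1, which makes the cofactor of monoamine synthesis, differed by −16.9 points (adjusted p = 0.017).

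Like Htr1a, 3 genes of these lists were already called lower at P14 than at P7. They were 2 of 5 synthesis genes tested, 0 of 8 transporter genes tested and the 1 breakdown gene tested, beside 11.7% of all genes tested. Pnmt, which converts noradrenaline to adrenaline, averaged 1.01% ± 1.74 at P14 against 22.9% ± 6.3 at P7 (adjusted p = 0.0073). Tph1, the tryptophan hydroxylase of peripheral tissues and the pineal gland, averaged 10.7% ± 3.2 at P14 against 24.9% ± 1.6 at P7 (adjusted p = 0.041). Ache, the acetylcholinesterase gene and the only 1 of 5 breakdown genes tested, averaged 6.75% ± 6.17 at P14 against 23.2% ± 4.8 at P7 (adjusted p = 0.037). Named after their values were seen, the catecholamine synthesis genes Th, Ddc and Dbh had no peak in any library.

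Of 8 genes for proteins that fold, bind or cluster nicotinic receptors, 3 were tested and 2 were called lower at P60 than at P7, again beside 45.8% of all genes tested. Lypd1, which encodes a membrane-anchored modulator of nicotinic receptors, had 26.7% ± 4.6 at P7, 39.5% ± 4.8 at P14 and 3.88% ± 4.57 at P60, and was called lower at P60 than at P14 (−35.6 points, adjusted p = 0.033). Lypd6b was called lower at P60 than at P7 (−16.0 points, adjusted p = 0.043), and Tmem35a, a chaperone gene, was not called and averaged 3.54% ± 2.34 at P60 against 5.62% ± 0.92 at P7. All 10 transcription factor genes that specify monoaminergic or cholinergic neurons were tested, and 9 were called lower at P60 than at P7, with a median difference of −30.6 points. Phox2a, a factor of noradrenergic neurons, averaged 0.800% ± 1.385 at P60 against 53.9% ± 6.8 at P7 (−53.1 points, adjusted p = 0.00069). Fev, the serotonergic factor Pet1, had 0% at P60 against 46.9% ± 14.5 at P7 (−46.9 points, adjusted p = 0.0057). Pitx3, a dopaminergic factor, kept 17.8% ± 17.5 at P60 against 43.6% ± 9.2 at P7 (−25.8 points, adjusted p = 0.035), and P60 replicate 3 alone had 37.9%. Lmx1b, a factor of dopaminergic and serotonergic neurons, differed by −36.0 points (adjusted p = 0.020). Of 5 histamine and trace amine receptor genes, the 3 tested were called lower at P60 than at P7, with −38.8 points at Hrh3 (adjusted p = 0.00072), −21.2 points at Hrh1 (adjusted p = 0.0086) and −10.4 points at Hrh2 (adjusted p = 0.035).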

How the data were processed

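The authors checked reads with FastQC, trimmed them with Trimmomatic 0.38, aligned them to mm10 with STAR 2.7.2b and called broad peaks per library with MACS2 2.1, and no input is described for them in the sources read. Each deposited peak carries its fold enrichment, a ratio within the library, the −log10 of its p-value and of its q-value, and a score, which is its −log10 q multiplied by 10. They reach down to −log10 q of about 1.00, below the named threshold. The lists hold no read counts, so depth is unknown, no counting interval was computed and the authors' DESeq2 test could not be run. Positions of the 9 age libraries were read as GRCm38. The 5 Kdm6b lists (3 Kdm6b-cKO and 2 Kdm6b-WT) end at 169.327 Mb on chromosome X, the age lists at 170.881 Mb, so these lists follow different builds, and the planned comparison was left out.

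For each gene of GENCODE vM21 and each library, the window of 6001 bp around every annotated TSS with the highest percent under peaks was taken. The 5120 genes with a marked promoter in at least 2 libraries were fitted with limma 3.58.1 (trend, robust, R 4.3.3) over all 9 libraries, which share 1 estimate of the spread, with Benjamini-Hochberg adjustment. Of the 33 receptor genes tested, 2 were marked in P7 libraries only and could only have come out lower, and neither was called. The fit was also run on simulated data. These had a normal spread, no lower bound and no shift of whole lists, unlike the real values, so the run does not bear on these features. Alternatives were stricter or wider peaks, lists of equal number, other windows, filters and scales, fewer libraries and a replicate block. Values in every library are given for the 4 receptor genes of each family with the highest mean coverage and for genes called at P14 against P7. Other called genes are given with their difference and adjusted p, and up to 4 genes of each pathway list by mean coverage, and 1 receptor gene is counted but its values are not reported here. The receptor genes and the lists were chosen with earlier results of these data known. Per the labels, replicates are separate samples, and p-values measure the spread between them. Python 3.11.15, pysam 0.24.0 and matplotlib 3.10.9 were used for coverage, sequences and plots.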

Additional observations from a re-analysis of the deposited data

How the results depend on the processing

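The direction of the result was the same wherever it was called. The count of receptor genes called lower at P60 than at P7 was 19 and stayed within 1.5 times of that under most alternatives, including 16 with the replicate block. It was 3 after peaks under −log10 q of 4 were dropped (11 genes then marked in 2 or more libraries and tested, against 33), 4 with coverage divided by the library mean, and 0 without the libraries of narrow peaks, where P60 held 1 library. It ranged from 12 to 20 with 1 library left out, while the share over all genes tested ranged from 31.4% to 54.8%. That share was 26.0% with −log10 q of 4 or more and 39.9% with the replicate block. Of the 19 genes, 12 were called whichever library was left out. With coverage divided by the library mean, 10 of the 33 differences were no longer negative, among them those of the called genes Adra2b, Chrna3 and Chrna5 (8.53, 5.97 and 3.62 times the library mean, adjusted p 0.18, 0.16 and 0.58), and the cause was not tested. Calls were also lost with −log10 q of 2 or more (Htr1a, Htr1b, Htr2a and Htr5a), equal numbers of peaks (the same 4 genes), 1 kb windows (Adra2a, Adra2b, Chrna5 and Htr2a), the 5 prime end (Adra2a), the replicate block (Chrna5, Htr2a and Htr5a), genes marked in 1 or more libraries (Chrna5 and Htr5a) and the 2 groups alone (Adra2b and Htr5a). Adra2c with 1 kb windows, and Adrb3 and Chrna4 with the 5 prime end, were not tested, being marked in fewer than 2 libraries.

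At P14 against P7, the count of 1 became 0 with −log10 q of 2 or more or 4 or more, with equal numbers of peaks, with genes marked in 1 or more libraries, with coverage divided by the library mean, with only the 2 groups compared, with the replicate block and without the libraries of narrow peaks, and 2 with only the 5 prime end of the gene. It ranged from 0 to 4 with 1 library left out, reaching 4 without P7 replicate 3, when Htr1a was not among them. The share over all genes tested ranged from 3.50% to 19.6% in these fits and was highest without P7 replicate 3. The count stayed at 1 with 1 kb windows, on the arcsine scale and without P14 replicate 3, but the gene was then Htr5a, Htr5a and Chrng, and Htr1a was not called (adjusted p 0.18, 0.061 and 0.091). At P60 against P14, the count of 3 became 6 with −log10 q of 2 or more and with coverage divided by the library mean, 7 with 1 kb windows and 10 on the arcsine scale. It was 0 with −log10 q of 4 or more, with genes marked in 1 or more libraries, with only the 2 groups compared, with the replicate block and without the libraries of narrow peaks, and ranged from 0 to 11 with 1 library left out. Over all genes tested, the share called lower at P60 against P14 also moved, from 2.07% to 8.83% with −log10 q of 2 or more. That share was 8.44% with coverage divided by the library mean, 11.8% with 1 kb windows and 18.7% on the arcsine scale. No receptor gene was called higher in any fit. The filter of 1 or more libraries was chosen after seeing the data, since a fit of all genes could not be made.

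Replicate numbers did not pair the samples. Same-numbered libraries correlated between −0.22 and 0.25 in their deviations from stage means across genes, which are not independent replicates, and not every library correlated best with its own number. Depth is unknown, so whether the narrow P60 lists hold fewer reads was not tested.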

Other observations

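Of the 39 receptor genes with 1000 or more bases of gene body outside all their TSS windows, 16 carried a peak there in at least 1 library. Drd3, whose windows had no peak in any library, had 0.77% to 2.48% of 59905 bp of gene body under peaks in 7 of the 9 libraries, among them P60 replicates 1 and 2 with 2.30% and 0.77%, and 0% in P7 replicate 1 and P60 replicate 3. At Adra1b the body was covered over 0.33% to 1.14% of 117603 bp and at Htr1f over 0.03% to 0.67% of 178125 bp, in all 9 libraries each. Adra1d had the highest value, with 17.7%, 14.9% and 14.2% at P7, 0.92%, 12.2% and 9.50% at P14 and 1.62%, 0% and 5.02% at P60. These values enter no comparison above, and no difference between stages was tested.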
